A study of Mus musculus with 4 samples.

Results

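Cycling cells made up 280 of the 12883 barcodes kept in 4 single-cell libraries of mouse brain myeloid cells, or 2.17%. They were picked by the transcripts they held. A barcode was kept when it had at least 2000 UMIs (unique molecular identifiers, each standing for 1 captured transcript) and at least 500 genes, with at most 10% of UMIs from mitochondrial genes. A kept cell was placed in G2/M when it had a UMI in at least 3 of Top2a, Mki67, Birc5, Prc1, Cenpf and Ube2c. It was placed in S when it had a UMI in at least 4 of Tk1, Rrm2, Mcm3, Mcm5, Mcm6, Tyms and Pclaf but in fewer than 3 of the first 6. The first rule took 201 cells and the second 79. Because these 13 genes chose the cells, their levels and those of other genes of the cell cycle are given as a description, with no test. All 12603 other kept barcodes are called non-cycling here, which says only that they did not meet the rule.

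The cells were stained for CD11b and CD45, surface proteins of myeloid cells and leukocytes, and sorted from the left brain hemisphere of mice labelled female and 4 months old. Every mouse carried APP/PS1, a transgenic background that overproduces amyloid and forms plaques. The 2 libraries called Control 1 and Control 2 had no further genotype. The 2 called cKO 1 and cKO 2 were labelled APP/PS1:miR-155 cKO, with deletion of miR-155, a microRNA linked to inflammatory activation, in microglia. The Cre driver, the deleted stretch and the number of animals behind a library are not given in the sources used here. Values for the 4 libraries are given below in the order Control 1, Control 2, cKO 1 and cKO 2.

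The libraries held between 33130800 and 47574406 UMIs, of which 11.2% to 17.8% lay in barcodes of at most 100 UMIs. Control 1 stands apart from its label. Xist, the RNA that coats the inactive X chromosome in female cells, was at 0.713 CPM (the standard sequencing-depth scale, on which all genes of a sum add up to the same total) over its kept cells and between 1708 and 1858 CPM in the other libraries. The 4 Y-linked genes checked had between 2 and 7 UMIs in each library. Mir155hg, the host transcript of miR-155, had 7, 11, 1 and 1 UMIs over all kept cells and 0, 3, 1 and 0 in cycling cells, too few to check the deletion. The libraries shared 12 kept barcodes in all, and no cycling barcode was shared.

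A cell that divides first loads the Mcm helicase onto replication origins in G1, then copies its DNA in S phase with a supply of nucleotides and newly made histones, and then in G2 and mitosis builds a spindle and separates its chromosomes. E2F transcription factors switch on the replication genes, and a later complex of B-Myb, FoxM1 and the MuvB core switches on mitotic genes through promoter elements called CHR. Microglia, the resident macrophages of the brain, renew themselves by division in place and proliferate around amyloid plaques, where many take up the neurodegenerative state called MGnD.

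The cycling sets had the transcripts of microglia. Their cells had a median of 12 of 12 microglial markers in every library, and each had at least 3, as did 12590 of the 12603 non-cycling barcodes. The lowest number was 3 in G2/M cells and 9 in S-rule cells, so the markers describe the sets and not each cell. The summed level of the 12 markers lay between 17825 and 20124 CPM in G2/M cells, between 20895 and 26229 CPM in S-rule cells and between 23488 and 27082 CPM in non-cycling cells. 3 G2/M cells and 1 S-rule cell also had at least 3 markers of another cell class. 1 G2/M cell of Control 1 and 1 S-rule cell of cKO 1 carried nearly all neutrophil transcripts: the 8 neutrophil markers summed to 10591 CPM in the first set and 14863 CPM in the second, and to at most 2.39 CPM in the G2/M and S-rule cells of the other libraries and sets. The T-cell genes Cd3e, Cd3d, Cd3g, Trac and Trbc2 and also Cd79a, Ms4a1, Lyve1, Cd163, Sox2 and Dcx were at 0 in all cycling cells. Other markers of the same classes were not. In G2/M cells a UMI was found for 2 of 8 T or NK markers, 6 of 8 border macrophage markers and 1 of 7 neural markers. For B cells it was 2 of 7 markers, which summed to between 237 and 310 CPM in G2/M and between 264 and 317 CPM in non-cycling cells.

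The rule genes differ in their promoters. The promoters below are those of the 2 genes of each rule with the highest CPM in the cells it picked, and they show the elements that the mitotic and the replication genes do and do not share. Each sequence is the 250 bases before the RefSeq start site on the GRCm38.p6 build, written 5′ to 3′ on the gene's strand, at chr11:99024190-99024439 (minus strand) for Top2a, chr7:135716380-135716629 (minus) for Mki67, chr1:20820313-20820562 (minus) for Mcm3 and chr1:128359706-128359955 (minus) for Mcm6. Capitals mark 3 motifs on either strand, none of which overlap here. The CHR core is TTTGAA. The box bound by the factor NF-Y is CCAAT. The match to the element of E2F factors is GGCGGGA, so the reverse complement of each is in capitals too.
Top2a: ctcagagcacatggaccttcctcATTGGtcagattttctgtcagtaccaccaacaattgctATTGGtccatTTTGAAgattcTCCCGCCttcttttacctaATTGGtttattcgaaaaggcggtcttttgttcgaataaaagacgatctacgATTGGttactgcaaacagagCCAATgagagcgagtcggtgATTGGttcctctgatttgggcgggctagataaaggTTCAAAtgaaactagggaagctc
Mki67: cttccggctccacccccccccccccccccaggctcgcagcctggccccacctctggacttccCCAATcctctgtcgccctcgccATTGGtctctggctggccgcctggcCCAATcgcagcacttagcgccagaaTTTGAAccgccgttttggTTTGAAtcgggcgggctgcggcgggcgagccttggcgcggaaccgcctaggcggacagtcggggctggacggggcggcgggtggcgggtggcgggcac
Mcm3: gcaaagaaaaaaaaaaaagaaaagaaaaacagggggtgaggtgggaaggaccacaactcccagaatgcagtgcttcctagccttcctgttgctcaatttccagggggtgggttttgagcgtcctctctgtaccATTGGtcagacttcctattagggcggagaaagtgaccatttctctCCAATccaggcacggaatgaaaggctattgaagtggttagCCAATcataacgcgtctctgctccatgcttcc
Mcm6: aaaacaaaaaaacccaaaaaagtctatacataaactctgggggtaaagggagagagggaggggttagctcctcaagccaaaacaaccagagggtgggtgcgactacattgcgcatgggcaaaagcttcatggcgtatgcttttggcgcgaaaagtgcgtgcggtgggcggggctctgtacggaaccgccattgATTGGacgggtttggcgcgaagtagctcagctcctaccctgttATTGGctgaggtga
Top2a and Mki67 each held the CHR core at 2 places, and Mcm3 and Mcm6 at none. Of the printed stretches only that of Top2a held the E2F match. Mki67 and Mcm3 had theirs 13 and 18 bases past the start site, outside the printed bases. Over windows that ran from 250 bases before to 50 after the start site, the CHR core lay in 5 of the 6 G2/M rule genes (not Birc5) and in 0 of the 7 S rule genes. It lay in 20.2% of the 27025 genes with a window in the RefSeq table, and in 14.7% of the 7038 of these that were tested between classes of cells. The CCAAT box lay in 5 of 6 and 5 of 7 rule genes and in 41.1% of all genes, and the E2F match in 5 of 6, 3 of 7 and 12.7%. Among the tested genes the shares were 43.0% for the CCAAT box and 25.5% for the E2F match. Among the other mitotic genes with a window, the CHR core was in 9 of 11 kinases and spindle genes, 9 of 13 kinetochore and chromosome genes and 7 of 11 genes of mitotic exit, against 3 of 9 genes of origin licensing and 2 of 13 of the replication fork. The E2F match was in 2 of 11, 1 of 13, 5 of 11, 0 of 9 and 8 of 13 genes of these lists, so it did not split them into mitotic and replication genes. A match describes letters and is not a measured binding site.

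The G2/M cells carried most genes of the late cycle at high level. Top2a, the topoisomerase that untangles sister chromosomes, was at 1027, 1058, 933 and 834 CPM in G2/M cells, with a mean of 963 ± 101 (SD, n = 4 libraries), and at a mean of 0.851 ± 0.181 CPM in non-cycling cells. Single-gene CPM values here were scaled by TMM, a correction for unequal library composition. Mki67, the proliferation marker that coats mitotic chromosomes, was at 944, 982, 905 and 789 CPM and at a mean of 0.577 CPM in non-cycling cells. The lowest G2/M library lay far above the highest non-cycling library for both genes, which follows from the rule. The other rule genes followed: Birc5 (survivin) averaged 338 ± 69.1 CPM in G2/M cells, Prc1, which bundles the midzone of the spindle, 447 ± 66.5, Cenpf, a kinetochore protein, 529 ± 139, and Ube2c, the ubiquitin-conjugating enzyme of mitotic exit, 417 ± 135. Their non-cycling means were at most 2.83 CPM. Top2a, Mki67, Birc5, Prc1, Cenpf and Ube2c had a UMI in 84.1%, 94.0%, 91.5%, 80.1%, 85.6% and 79.6% of G2/M cells and in 0.555%, 0.444%, 0.357%, 0.452%, 1.90% and 1.12% of non-cycling cells. The profile of free RNA alone would put between 0.002% and 0.011% of barcodes of 2000 UMIs past the G2/M rule. The G2/M cells were deeper, with medians between 11293 and 16200 UMIs, and the figure at their depth was not computed.

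Other genes of the cycle were high in the same cells. Hist1h1b, a replication-dependent linker histone, was at 1060.5, 945, 965 and 882 CPM in G2/M cells and at 1.22, 1.37, 1.10 and 1.41 CPM in non-cycling cells. Stmn1, which destabilises microtubules, averaged 1437 ± 336 CPM against 28.1 ± 3.09, and H2afz, the histone variant H2A.Z, 2199.9 ± 606 against 296 ± 18.5. In every library these 3 genes were higher in G2/M cells than in all the other cells. By list, the median fitted log2 difference from non-cycling cells was 7.37 over 15 mitotic kinases and spindle genes, 6.34 over 15 kinetochore and chromosome genes, 6.63 over 12 genes of mitotic exit, 3.20 over 15 genes of the replication fork, 3.00 over 14 tested histones and 2.67 over 12 genes of origin licensing and firing. The median over all 8809 genes tested was -0.02. Past an adjusted p of 0.05 lay 15 of 15, 15 of 15, 11 of 12 (not Pttg1, at -0.09), 15 of 15, 14 of 14 and 12 of 12 of these, all higher, beside 20.0% of all genes, and nothing is read from counts that follow from the rule.

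**Figure D1:**
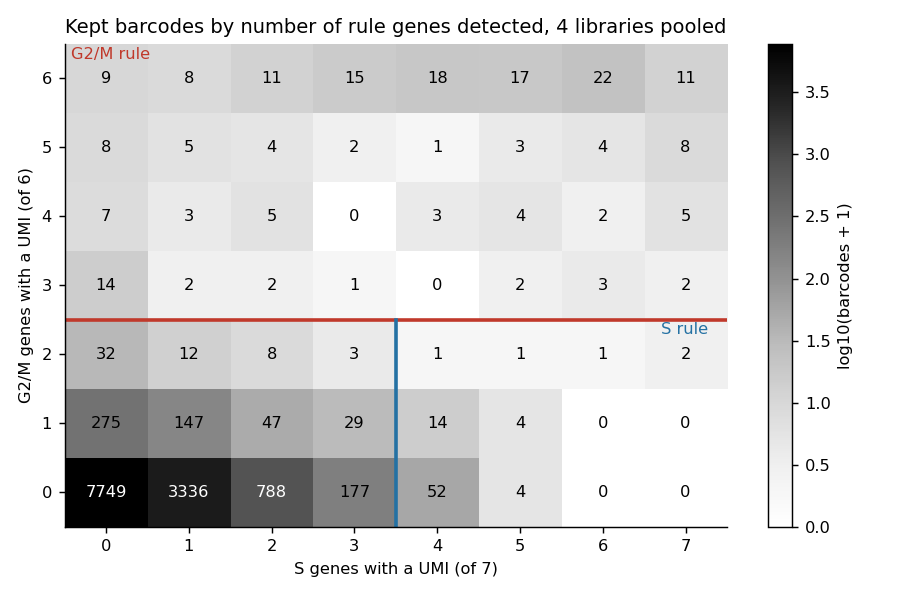
Number of kept barcodes, summed over the 4 libraries, by how many of the 6 G2/M rule genes (vertical axis) and 7 S rule genes (horizontal axis) had a UMI; shading is log10 of the number plus 1, the red line bounds the G2/M rule and the blue line the S rule. Of the G2/M cells 111 had all 6 G2/M genes, while 52 of the 79 S-rule cells sat in the first box past the S rule with no G2/M gene.

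Most G2/M cells lay above their threshold, and most S-rule cells lay at theirs. 26 G2/M cells had the minimum of 3 G2/M genes, 60 cells just outside had 2, and 111 had all 6, as the grid of rule genes shows. In contrast, 67 of the 79 S-rule cells had exactly the minimum of 4 S genes, and 209 cells just outside had 3 S genes and fewer than 3 G2/M genes. With 1 gene more asked of each rule, 175 G2/M cells and 19 S-rule cells were left. After every cell was thinned to 2000 UMIs, the rules took 127 G2/M cells and 5 S-rule cells. The S-rule cells were also the deepest: their median UMI count was 23711, 17052, 18597 and 22840, against 12343, 16200, 11293 and 12601 in G2/M cells and 6410, 6718, 6346 and 7400 in non-cycling cells. How far this depth placed cells in the S rule was not tested.

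The S label holds only in part for these cells. Mcm3, a subunit of the replicative helicase, was at 112, 159.8, 128 and 164 CPM in S-rule cells and at 38.2, 37.0, 36.6 and 34.4 CPM in non-cycling cells, and Mcm6 was at 51.3, 101, 60.5 and 103 and 8.90, 10.53, 8.40 and 9.65 CPM. Other rule genes were far lower in S-rule than in G2/M cells, which the rule allows, since most S-rule cells had just 4 of the 7. Rrm2, the regulated subunit of ribonucleotide reductase, was at 0, 7.89, 7.12 and 0 CPM in S-rule cells and at 56.3, 79.2, 93.8 and 115 CPM in G2/M cells. Pclaf, the PCNA-binding factor, was at 11.7, 19.7, 10.7 and 14.7 and 193, 225, 209 and 236 CPM, and Tk1, thymidine kinase, at 11.7, 29.6, 16.01 and 0 and 84.4, 98.6, 115 and 155 CPM. For these 3 genes every library's S-rule value lay below every G2/M value. Rrm2 had a UMI in 5.06% of S-rule cells and 38.8% of G2/M cells, and Pclaf in 24.1% and 68.7%, although the S-rule cells were deeper.

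Histones, which the rule did not use, separated the sets. The 15 histone genes listed summed to 947, 1107, 977 and 903 CPM in S-rule cells, 1056, 1126, 971 and 980.1 CPM in non-cycling cells and 7319, 6928, 6362 and 5406 CPM in G2/M cells (sums are CPM without TMM). The S-rule values lay within the range of non-cycling cells or just below it, and the G2/M values lay above all of them. The 7 S rule genes themselves summed to 374 ± 81.7 CPM (SD, n = 4) in S-rule cells and to 795 ± 221 CPM in G2/M cells, against 64.1 ± 0.407 CPM in non-cycling cells. Beside the rule genes, other genes of origin licensing and of the G1/S switch were higher in S-rule than in non-cycling cells. Mcm2, another helicase subunit, was at 30.3, 37.5, 46.3 and 55.8 CPM in S-rule cells, at 26.0, 17.6, 13.4 and 30.1 CPM in G2/M cells and at 4.21, 6.50, 4.10 and 4.59 CPM in non-cycling cells. E2f1, the activating E2F, averaged 20.3 ± 10.0 CPM against 2.18 ± 0.490, and Pcna, the clamp of the replication fork, 216 ± 51.4 against 111 ± 11.4. Ccne2, cyclin E2, which drives entry into S phase, averaged 13.6 ± 11.5 CPM in S-rule cells and 68.8 ± 46.9 CPM in G2/M cells. Of 12 tested genes of licensing and firing 11 were higher in S-rule than in non-cycling cells, of 15 genes of the fork 15 (median log2 difference 2.02), of 15 mitotic kinases and spindle genes 1, and of 14 histones 1, with 3 histones lower. The share of all tested genes higher in S-rule cells was 2.29%, and these counts follow from the rule. Fork genes were higher again in G2/M cells, by a median of 0.83 over the S-rule cells, with 10 of 15 past the threshold and Pola1, Pole, Pold1, Rfc3 and Dnmt1 not. The S-rule cells thus had raised licensing and fork transcripts without a raised histone sum, and they are called by their rule below.

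**Figure D2:**
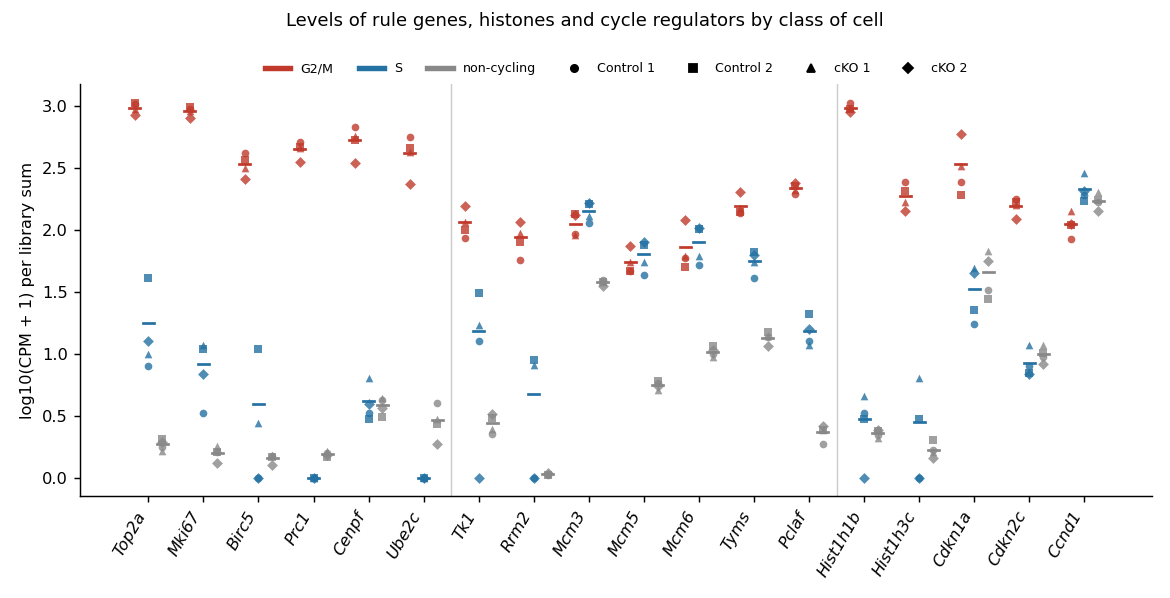
Level of the 13 rule genes, 2 histones and 3 regulators as log10(CPM + 1) (vertical axis, a log scale) in G2/M, S-rule (marked S) and non-cycling cells; each point is 1 library and each bar the log of the mean of 4. Rrm2, Tk1, Pclaf and both histones lie lower in every S-rule library than in any G2/M library, while Mcm3, Mcm5 and Mcm6 have higher means in S-rule cells.

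The G2/M cells spread over all numbers of S rule genes, with no gap. G2/M is thus also the name of a rule here, and not a phase shown for each cell. 105 of the 201 G2/M cells, 52.2%, also had UMIs in at least 4 of the 7 S rule genes: 32 of 77, 23 of 33, 35 of 67 and 15 of 24 cells by library. They were deeper, with medians of 15308, 21016, 14356 and 16499 UMIs, than the 96 G2/M cells with fewer S genes, at 10478, 10410, 9868 and 9329 UMIs. The number of S genes was used to split the cells and follows depth, so replication genes were bound to differ, and the differences below are a description with no test. Ccne2 was at 48.7, 65.2, 92.4 and 198 CPM (without TMM, as all values of this split) in the cells with 4 or more S genes and at 0, 8.54, 5.501 and 0 CPM in those with fewer. Pcna was at 430.0, 305, 517 and 765 and 83.1, 179, 85.3 and 81.8 CPM, and Hist1h1b at 1739, 1018, 1362 and 1256 and 275, 316, 391 and 92.0 CPM. Ccnb1, the cyclin of mitotic entry, ran the other way in 3 of 4 libraries, at 99.6, 104, 79.2 and 62.2 and 83.1, 179, 204 and 194 CPM, and so did Cenpf in 4 of 4, at 538, 485, 379 and 253 and 644, 521, 847 and 695 CPM. Over whole lists, the median log2 ratio of the 2 sides of this split was 2.68 for origin licensing (12 of 13 genes higher in all 4 libraries), 2.28 for the replication fork (15 of 15), 2.42 for E2F, B-Myb and FoxM1 regulators (10 of 11) and 1.62 for histones (12 of 15). It was 0.06 for mitotic kinases and spindle genes, 0.52 for kinetochore and chromosome genes (7 of 15 higher and 2 lower in all 4 libraries), -0.22 for mitotic exit (2 of 12 higher and 2 lower), 0.06 for homeostatic microglial genes and 0.04 for MGnD genes. Single mitotic genes went both ways: Cenpa, the centromeric histone, was at 301, 295, 194 and 106 and 457, 350.2, 481 and 450.0 CPM, and Cdc20, an activator of mitotic exit, at 136, 110.0, 75.4 and 40.3 and 154, 162, 223 and 184 CPM, lower in all 4 libraries in the cells with more S genes.

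**Figure D3:**
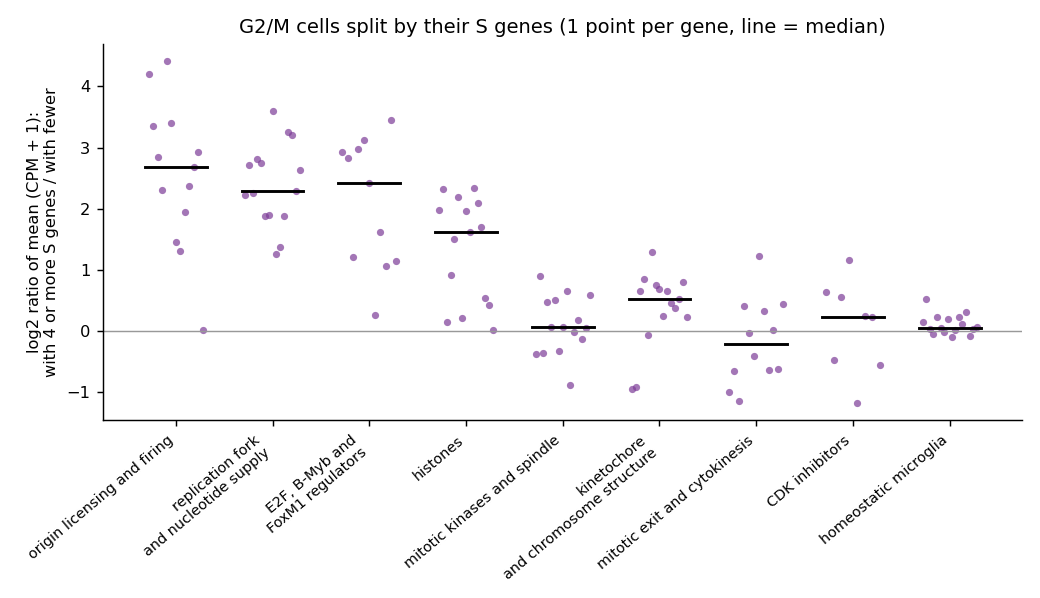
Log2 ratio of mean CPM plus 1 (vertical axis) between the 105 G2/M cells with 4 or more S rule genes and the 96 with fewer, by gene list; each point is 1 gene and each line the list's median. Licensing, fork, E2F and histone genes lie mostly above 1, while mitotic genes lie on both sides of 0.

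Most inhibitors of the cell cycle were high in G2/M cells. Cdkn1a encodes p21, which blocks cyclin-dependent kinases and is a classic target of p53. It was at 240.2, 188, 328 and 594 CPM in G2/M cells, at 16.3, 21.7, 48.0 and 44.0 CPM in S-rule cells and at 31.4, 26.6, 65.8 and 55.0 CPM in non-cycling cells. The lowest G2/M library lay above every library of the other 2 classes, while S-rule and non-cycling cells overlapped. A Cdkn1a UMI was found in 71.4%, 78.8%, 82.1% and 79.2% of G2/M cells, 155 of 201 in all. Among non-cycling cells within the interquartile range of the UMI counts of the G2/M cells of the same library, called depth-matched here, the share was 16.2%, 15.9%, 26.0% and 23.6%. The median UMI counts of these matched cells were 12044, 14121, 11205 and 13643. In S-rule cells it was 27.8%, and in cells matched to them 27.2%. Cdkn2c (p18), an inhibitor of Cdk4 and Cdk6, was at 175, 167, 158 and 120.3 CPM in G2/M cells and 8.45, 9.11, 10.7 and 7.30 CPM in non-cycling cells. Cdkn2d (p19) averaged 107 ± 16.6 against 10.51 ± 1.28 CPM, and Cdkn2a 52.5 ± 8.37 against 3.33 ± 0.852 CPM. Of 7 tested inhibitors the median fitted log2 difference from non-cycling cells was 3.36 in G2/M and -0.13 in S-rule cells, given as a description. Cdkn1c ran the other way in G2/M cells, at -1.87 against all non-cycling cells and -1.84 against depth-matched ones. Cyclin D1 (Ccnd1), which carries growth signals into G1, was at 83.3, 109, 141 and 110.2 CPM in G2/M cells, 191, 169.7, 285 and 202 CPM in S-rule cells and 168, 174, 202 and 139.9 CPM in non-cycling cells.

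Genes outside the cycle lists were tested with edgeR's quasi-likelihood test on the UMIs summed per library and class, with the library as a block and Benjamini-Hochberg adjustment over all genes. These genes come from the cells that the rule picked, and cycling cells were deeper, so counts are given against all non-cycling cells and against the depth-matched ones, and each fold change names its comparator. Between G2/M and non-cycling cells 3123 of 8809 genes differed at an adjusted p under 0.05, 35.5%, of which 20.0% of genes were higher and 15.5% lower. Against depth-matched cells 2631 of 8796 differed, 29.9%, with 17.2% higher and 12.7% lower. The median share of mitochondrial UMIs was 3.17%, 3.74%, 2.38% and 2.33% in G2/M and 2.00%, 2.56%, 2.07% and 1.85% in non-cycling cells. mt-Nd1, mt-Co1 and mt-Atp6 were higher in G2/M than in all non-cycling cells (0.32, 0.33 and 0.30 on the log2 scale) and did not pass against depth-matched cells. Their part in the results below was not tested. With 4 libraries of 2 genotypes and the library as a block, the p-values measure how differences between classes within a library vary over these libraries.

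p53 targets split. The p53 list is one of the cycle lists, so its values are a description and nothing is read from a test. Of 9 genes of the p53 list with a fit, 4 were higher in G2/M than in depth-matched cells (Phlda3, Bax, Ccng1 and Bbc3) and 1 was lower (Btg2), beside 17.2% and 12.7% of all genes. Phlda3, a repressor of Akt, averaged 15.4 ± 9.92 CPM in G2/M and 1.15 ± 0.347 in non-cycling cells, a log2 fold change of 3.60 ± 0.46 (SE), and 3.08 against depth-matched cells. Bax, which opens the mitochondrial membrane in cell death, was at 237, 211, 199 and 170.4 CPM in G2/M cells and 118, 117, 119 and 104 CPM in non-cycling cells, higher by 0.68 ± 0.10 on the log2 scale than depth-matched cells.

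Most homeostatic genes of microglia fell in G2/M cells. P2ry12, the ADP receptor that steers microglial processes, was at 1015, 1403, 1407 and 1303 CPM in G2/M cells, 2184, 1698, 2005 and 1951 CPM in S-rule cells and 2506, 2168, 2371 and 2582 CPM in non-cycling cells. The 4 G2/M values lay below all others. Its log2 fold change was -0.91 ± 0.11 (SE) against all non-cycling cells and -0.75 ± 0.12 against depth-matched cells (edgeR adjusted p = 7.84e-07 and 2.44e-05). P2ry13, a related receptor, was at 211, 241, 337 and 248 and 523, 512, 539 and 515 CPM in G2/M and non-cycling cells and fell by 0.83 against depth-matched cells. Slc2a5, a fructose transporter found in microglia, fell by 0.76, and Cx3cr1, the fractalkine receptor, by 0.47 on the same scale. Of the 16 homeostatic genes 11 were lower and 0 higher against all non-cycling cells (median log2 difference -0.46), beside 15.5% of all genes lower. Against depth-matched cells 10 of the 16 were lower (median -0.34), beside 12.7% of all genes. The medians over all genes were -0.02. Tmem119, a surface marker of resident microglia, was lower against all non-cycling cells (-0.54) and missed the threshold against depth-matched cells (-0.33, edgeR adjusted p = 0.078). In S-rule cells only P2ry13 (-0.47) and Gpr34 (-0.36) of the 16 passed against all non-cycling cells, and none against depth-matched cells, beside 0.511% and 0.125% of all genes lower.

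All immediate-early genes and some microglial transcription factors were also lower in G2/M cells. Mef2a, a factor of the microglial enhancer programme, was at 424, 512, 471 and 561 CPM in G2/M and 809, 717, 758 and 779 CPM in non-cycling cells, lower by 0.49 ± 0.11 on the log2 scale than depth-matched cells (edgeR adjusted p = 0.00158). Against all non-cycling cells it had -0.64. Of the 12 factors listed, 5 were lower and 7 did not pass with either comparator, beside 15.5% (all) and 12.7% (depth-matched) of all genes lower. Maf, Sall1 and Mitf were among those lower. Fos, a subunit of AP-1, was at 393, 475, 583 and 1042 CPM in G2/M cells, 925, 673, 1114 and 1232 CPM in S-rule cells and 1326, 1028, 1336 and 1889 CPM in non-cycling cells. Within each library the order was the same, G2/M lowest and non-cycling highest. All 12 immediate-early genes were lower in G2/M cells with either comparator, beside the same 15.5% and 12.7% of all genes. Their median was -0.79 against all and -0.63 against depth-matched cells. Klf2, a zinc-finger factor, had -1.002, and Fosb, another AP-1 subunit, -0.98 against depth-matched cells. In S-rule cells Fos, Klf2 and Btg2 were lower than in all non-cycling cells, by 0.50, 0.54 and 0.37, and none of the 12 passed against depth-matched cells, beside 0.511% and 0.125% of all genes lower. Hspa1a, an inducible chaperone, was at 42.2, 24.6, 108 and 72.7 CPM in G2/M cells and 130.3, 85.5, 218 and 386 CPM in non-cycling cells, with -1.63 against all and -1.38 ± 0.21 against depth-matched cells (the latter with edgeR adjusted p = 1.79e-05).

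MGnD genes depended on the comparator. Of 23 tested genes of the list, 9 were higher in G2/M than in all non-cycling cells and none lower (Spp1, Cd52, Lpl, Lgals3, Gpnmb, Cst7, Ch25h, Ccl6 and B2m). Of all genes 20.0% were higher and 15.5% lower. Against depth-matched cells 3 were higher and 8 lower, beside 17.2% and 12.7% of all genes. The count of 3 higher genes was near the share of all genes. Spp1, osteopontin, was at 109, 68.6, 77.1 and 27.6 CPM in G2/M cells, 9.32, 13.8, 8.90 and 26.4 CPM in S-rule cells and 18.7, 42.5, 28.9 and 11.7 CPM in non-cycling cells, and stayed higher than in depth-matched cells by 0.86 ± 0.22 (edgeR adjusted p = 0.00471). Gpnmb, a lysosomal glycoprotein, was at 0, 22.9, 15.6 and 50.1 CPM in G2/M cells and Lgals3, galectin 3, at 92.0, 1.76, 61.4 and 5.01 CPM. Both passed against depth-matched cells (1.53 and 1.05), but the libraries disagreed: Gpnmb was at 0 in Control 1, and Lgals3 was high in Control 1 and cKO 1 alone. The 7 monocyte markers summed to 189.6 and 179 CPM in the G2/M cells of those 2 libraries and to 18.1 and 32.4 CPM in Control 2 and cKO 2, and their part in the Lgals3 values was not tested. Cst7, cystatin F, went from 0.78 against all to -0.09 against depth-matched cells, and Lpl, lipoprotein lipase, from 0.73 to 0.01, neither past the threshold when matched. Clec7a, the β-glucan receptor that marks plaque-associated microglia, was at 406, 229, 201 and 153 and 283, 309.8, 232 and 143 CPM in G2/M and all non-cycling cells and lower by 0.69 ± 0.15 than in depth-matched cells (edgeR adjusted p = 0.00108). Csf1, Igf1 and Itgax were also lower than in depth-matched cells, with -0.90, -0.94 and -0.91, and did not pass against all (-0.37, -0.14 and -0.19). Deep cells of these libraries held more of the MGnD genes whether or not they cycled, as the state shares below show.

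Several genes of growth factor signalling were lower in G2/M cells. Of 12 tested growth factors and receptors 6 were lower than in all non-cycling cells and 9 than in depth-matched ones, beside 15.5% and 12.7% of all genes, and none was higher. Values against depth-matched cells included Csf1r, the receptor on which microglia depend to survive (-0.28), Tgfbr1 (-0.35), Csf2rb, a chain of the GM-CSF receptor (-0.44), and Igf1r (-0.60). Of 11 interferon genes 3 were lower with either comparator: Slfn5 was at 21.6, 12.3, 20.1 and 15.03 CPM in G2/M and 56.5, 62.1, 52.7 and 60.5 CPM in non-cycling cells, and Ifit1 and Ifit3, antiviral RNA-binding proteins, had -1.36 and -0.95 against depth-matched cells. Of 12 cytokine genes 6 were lower than in all non-cycling and 8 than in depth-matched cells, the latter with Nfkbiz, an inducible regulator of NF-κB, at -0.77 and Ccl4, a chemokine, at -0.71 (-0.25 and not past the threshold against all). Gapdh, a glycolytic enzyme, had 0.95 against all and 0.55 against depth-matched cells, and 7 of 10 tested glycolysis genes were higher against all but 3 against depth-matched cells, with Hk2 and Pfkl lower with either. Fdps of sterol synthesis went from 1.20 to 0.71, with 6 of 11 genes of its list higher against all and 2 against depth-matched cells. Nme1, a nucleoside diphosphate kinase, had 0.76 and Nop56, a nucleolar protein of ribosome assembly, 0.59 against depth-matched cells, while Polr1a, a subunit of RNA polymerase I, was lower (-0.52). Of 11 tested ribosome genes 3 were higher and 1 lower against depth-matched cells (median -0.04). The counts of sterol and ribosome genes higher against depth-matched cells were near the 17.2% of all genes.

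**Figure D4:**
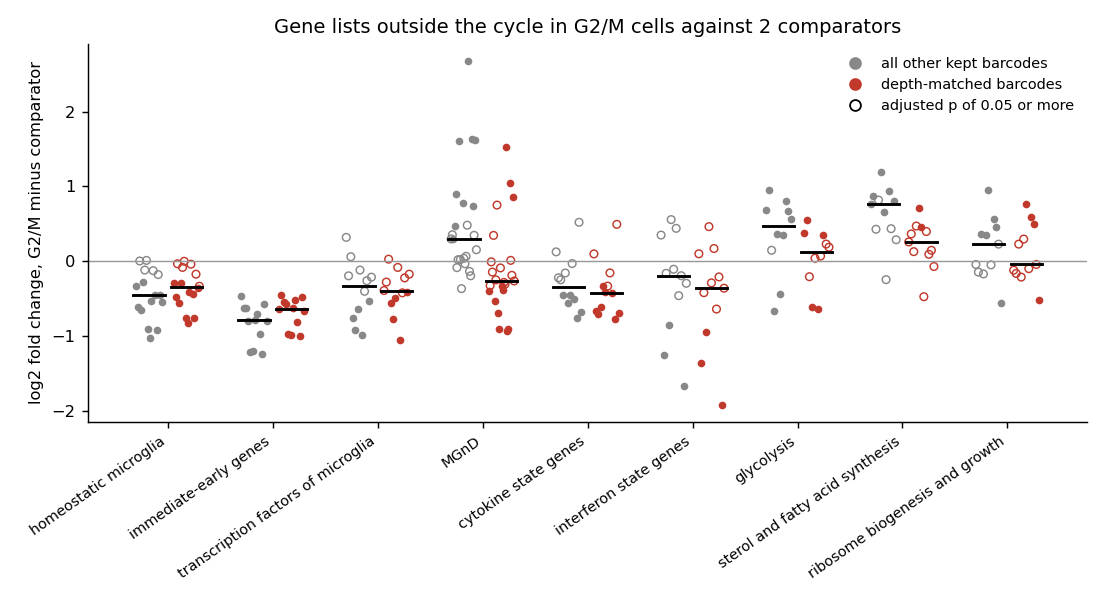
Log2 fold change of G2/M cells (vertical axis) for genes of 9 lists outside the cycle, against all other kept barcodes (grey) and depth-matched ones (red); each point is 1 gene, filled at an edgeR adjusted p under 0.05, and each line is a list's median. Immediate-early and homeostatic genes lie below 0 with both comparators, while the MGnD median moves from 0.30 to -0.26 with the depth-matched comparator.

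Among well-measured genes outside the cycle lists that moved the same way in every library, those with the smallest p in G2/M cells were Hist2h2ac, Tmpo, Hjurp, Atad2, Tagln2, Selenoh, Cbx5, Hdgf, Rad21 and Ran among 463 higher ones. Hist2h2ac is itself a histone, at 331, 371, 282 and 286 CPM in G2/M and 29.1, 37.6, 29.4 and 35.1 CPM in non-cycling cells. Hjurp, the chaperone that places the centromeric histone, was at 297, 304, 304 and 298 CPM in G2/M cells and 47.2, 43.7, 45.5 and 48.2 CPM in non-cycling cells. Tagln2, an actin-binding protein outside the nucleus, averaged 191 ± 10.9 against 32.7 ± 3.52 CPM (log2 fold change 2.47 against depth-matched cells). Among 638 lower ones the first included Ttr, Malat1, Ecscr, Fosb, Cd33, Klf4, Txnip, Inpp4b and Socs3. Malat1, a nuclear RNA, was at 13317, 15061, 15474 and 18036 CPM in G2/M, 19921, 21526, 20683 and 22379.5 in S-rule and 27442, 29078, 27412 and 31039 CPM in non-cycling cells. Cd33, a sialic-acid receptor that restrains microglial uptake, had -0.86 ± 0.10, and Socs3, an inhibitor of cytokine signalling, -1.21 ± 0.15 against depth-matched cells (edgeR adjusted p = 3.26e-07 and 1.32e-06). Ttr, transthyretin, a gene of the choroid plexus, was at 388, 198, 68.1 and 245 CPM in non-cycling cells and was found in cycling cells of cKO 2 alone.

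S-rule cells differed from the rest in fewer genes than G2/M cells. Between S-rule and non-cycling cells 247 of 8809 genes passed, 2.80%, with 2.29% higher and 0.511% lower, and 188 of them lay outside the cycle lists. Against depth-matched cells 167 of 8811 passed, 1.90%, with 1.77% higher and 0.125% lower, and 113 lay outside the lists. Atad2, a chromatin reader and E2F partner, was at 55.9, 126, 64.1 and 96.8 CPM in S-rule and 20.3, 20.4, 20.7 and 22.3 CPM in non-cycling cells (log2 fold change 2.02 ± 0.18, and 2.01 against depth-matched cells). Cbx5, heterochromatin protein 1α, had 1.73 and 1.66, and Ranbp1, a regulator of nuclear transport, 0.86 and 0.84. Both kept their size when depth was matched, unlike Lpl (0.89 and 0.31) and Capg, an actin-capping protein (1.05 and 0.49), which no longer passed. Also among the 10 named of 35 higher genes were Tagln2, Tmpo, Fam111a, Nap1l1 and Dek. Lower genes with the smallest p were Ttr, Lars2, Malat1, Ccng2, Cd83, Ppp1r10, Fam91a1, Klf7, Lpar6 and Csmd3 among 30. Cd83, a surface protein of activated antigen-presenting cells, was at 67.6, 78.9, 74.7 and 41.1 CPM in S-rule and 90.1, 111, 116 and 102 CPM in non-cycling cells and had -0.68 ± 0.15 against depth-matched cells (edgeR adjusted p = 0.0147).

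G2/M and S-rule cells were also set against each other, and 1470 of 8809 genes differed, 16.7%, with 10.7% higher in G2/M cells and 5.99% lower. Slfn5 was lower in G2/M cells by 1.63 ± 0.27 on the log2 scale, Hspa1a by 1.61 ± 0.24, Slc2a5 by 0.81 ± 0.12 and P2ry12 by 0.61 ± 0.11 (edgeR adjusted p = 1.36e-04, 2.20e-05, 2.52e-05 and 4.45e-04). 9 of 12 immediate-early genes and 6 of 16 homeostatic genes were lower in G2/M than in S-rule cells, and none of either list was higher. Spp1 was higher by 2.54 ± 0.43. With 1 gene more asked of each rule, which leaves 19 S-rule cells, 264 genes differed, and P2ry12 turned to 0.15 and Fos to 0.24.

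Microglial states were scored per cell after thinning to 2000 UMIs. A cell was MGnD-high with a UMI in at least 3 of 12 MGnD genes, interferon-high with 3 of 12 interferon genes, cytokine-high with 3 of 12 cytokine genes, MHC-II-high with 2 of 4 class II genes and heat shock-high with 1 of 3 heat shock genes. By library 50.6%, 33.3%, 26.9% and 20.8% of G2/M cells were MGnD-high, as were 29.4%, 48.0%, 22.7% and 26.7% of S-rule cells and 19.5%, 19.2%, 16.2% and 8.30% of non-cycling cells. Both cycling sets were above non-cycling cells in 4 of 4 libraries, by a mean of 17.1 points for G2/M cells and 15.9 for S-rule cells. The exact two-sided sign-flip test gave p = 0.125 for both, the smallest that 4 libraries allow. Against depth-matched cells, of which 37.6%, 46.6%, 33.4% and 20.8% were MGnD-high, the G2/M difference was -1.67 points (exact p = 0.750), and the S-rule difference was -3.55 points (exact p = 0.375). The excess over all cells was thus not seen among cells of like depth, even though every cell was thinned. In the other direction, 5.47%, 4.45%, 3.89% and 3.96% of MGnD-high cells were cycling, and 1.57%, 1.65%, 2.20% and 1.23% of the others.

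On thinned cells at these thresholds between 45.5% and 75% of G2/M cells and between 52.0% and 73.3% of S-rule cells of a library were neither MGnD-high nor interferon-high. Of 201 G2/M cells 66 were MGnD-high alone, 8 interferon-high alone, 7 both and 120 neither, and of 79 S-rule cells 24, 1, 2 and 52. The split depends on the threshold: without thinning 141 of 201 G2/M and 61 of 79 S-rule cells were MGnD-high, and with 1 gene fewer on thinned cells 115 and 44. Interferon-high cells made up 10.4%, 9.09%, 4.48% and 4.17% of G2/M cells and 6.30%, 7.46%, 6.66% and 7.499% of non-cycling cells, a mean difference of 0.05 points (exact sign-flip p = 1.0) that turned to -1.53 against depth-matched cells. 3 S-rule cells, all in cKO 1, were interferon-high. Heat shock-high cells made up 18.2%, 9.09%, 22.4% and 25.0% of G2/M cells, against 33.1%, 23.0%, 39.98% and 52.9% of depth-matched cells, lower in 4 of 4 libraries by a mean of 18.6 points (exact sign-flip p = 0.125). Cytokine-high cells made up 47.1%, 56.0%, 68.2% and 66.7% of S-rule cells against 44.4%, 47.0%, 52.0% and 50.4% of cells matched to them, higher in 4 of 4 libraries by a mean of 11.1 points (exact sign-flip p = 0.125). By gene, 0 of the 12 cytokine genes were higher in S-rule than in matched cells and 1 was lower (Cd83), beside 1.77% and 0.125% of all genes. Their median log2 difference was -0.02. In G2/M cells cytokine-high cells made up 28.6%, 27.3%, 34.3% and 62.5%, below the matched cells in 3 of 4 libraries. MHC-II-high cells made up 2.60%, 3.03%, 7.46% and 4.17% of G2/M cells, 0%, 0%, 9.09% and 6.67% of S-rule cells and 2.51%, 3.42%, 4.23% and 4.95% of non-cycling cells, mean differences of 0.537 and 0.162 points (exact sign-flip p = 0.875 and 1.0). Free RNA bears on these shares: droplets of free RNA alone would be heat shock-high in 55.2%, 35.7%, 62.0% and 90.4%, cytokine-high in 42.4%, 48.3%, 49.9% and 57.4% and MGnD-high in 20.1%, 24.2%, 11.1% and 2.96%. At each library's share of UMIs in barcodes of at most 100 UMIs the heat shock figures would be 8.58%, 6.94%, 13.4% and 34.2%. The last lay above the G2/M share of cKO 2. Free RNA within the cells was not measured, and its part in any of these state shares was not tested. The cytokine figures at that share of free RNA would be 0.280%, 1.02%, 0.834% and 1.78%, and the MGnD-high shares 0.0834%, 0.310%, 0.0787% and 0.0254%. These are among 10 comparisons of 5 states in 2 sets, and none can pass 0.05 with 4 libraries.

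**Figure D5:**
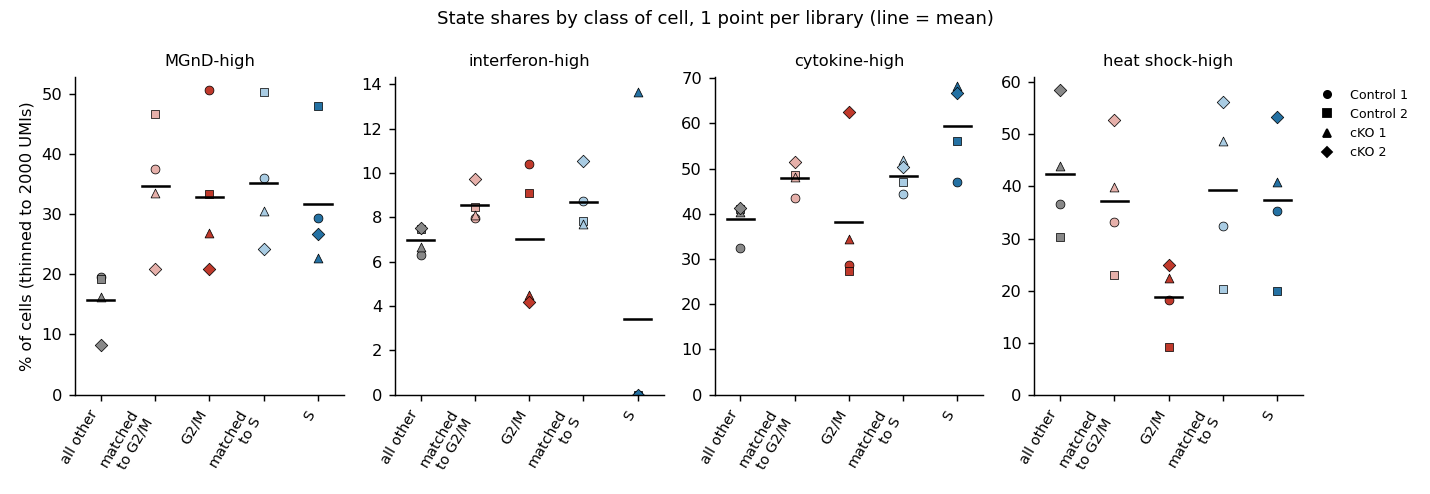
Percent of cells in 4 states after thinning to 2000 UMIs (vertical axes) among all other cells, cells depth-matched to the G2/M and to the S-rule (marked S) cells, and the 2 sets themselves; each symbol is 1 library and each line the mean of 4. MGnD-high shares of both cycling sets lie above all other cells of the same library, while their means lie just below those of the matched cells, and heat shock-high shares of G2/M cells lie below the matched cells of the same library.

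Genotype made no difference in the number of cycling cells that this design could show. G2/M cells made up 1.93%, 1.25%, 1.87% and 0.900% of kept cells, with exact binomial 95% intervals of 1.52 to 2.40, 0.864 to 1.76, 1.45 to 2.37 and 0.578 to 1.34, which cover counting error only. The cKO mean was lower by 0.205 points (exact two-sided permutation p = 0.667), and without Control 1 or without cKO 2 it was higher, by 0.131 and 0.279. S-rule cells made up 0.425%, 0.949%, 0.614% and 0.563%, lower in cKO by 0.0991 points (exact permutation p = 1.0) and higher by 0.163 without Control 2. All cycling cells made up 2.35%, 2.20%, 2.48% and 1.46%, lower in cKO by 0.304 points (exact permutation p = 1.0) and higher by 0.206 without cKO 2. With 2 libraries against 2 the smallest p is 0.333. The share of S-rule cells among cycling cells was 18.1%, 43.1%, 24.7% and 38.5%, and it varied as much within a genotype as between them.

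In cycling cells 6 of 9273 genes differed with genotype by edgeR's quasi-likelihood test, 0.0647% of those tested (0.0108% higher and 0.0539% lower), beside 821 at an unadjusted p under 0.05. The count was not stable: 134 genes passed with DESeq2, 176 with every gene that had a UMI and 0 with 1 gene more asked of each rule or on thinned cells, and in G2/M cells alone 1 of the 6 still passed. Cx3cr1 was at 3095, 2990.2, 1885 and 2015 CPM (without TMM, as all values of this comparison), a log2 difference of -0.78 ± 0.12 (SE; edgeR adjusted p = 0.0409), and in non-cycling cells it was also lower in both cKO libraries, at 4558, 3663, 2299 and 2654 CPM. The interaction test of cycling against non-cycling cells gave 0.02 for Cx3cr1 (edgeR adjusted p = 1.0). Some microglial Cre lines alter this gene, the Cre driver is not given in the sources used here, and its part in this value was not tested. Csf1 was at 105, 137, 57.7 and 57.2 CPM (-1.20 ± 0.19), Tyrobp, the adaptor of Trem2, at 5501, 4957, 3774 and 3395 CPM (-0.68 ± 0.11), and Ank, a pyrophosphate transporter, at 260.1, 251, 145 and 139 CPM (-0.98 ± 0.15), with mt-Atp6 also lower (-0.64 ± 0.11; edgeR adjusted p = 0.0425). Ly6a, Sca-1, was the 1 higher gene, at 6.81, 12.4, 54.2 and 41.4 CPM (2.25 ± 0.34). In each of the 6 the 2 cKO libraries lay on 1 side of both Control libraries. The rule for naming genes asked for this too, so nothing is read from it. Clec7a, Cst7 and Igf1 of the MGnD list had -0.82, -0.96 and -1.84 and missed the threshold (edgeR adjusted p = 0.0944, 0.0944 and 0.0717). No gene of the cell cycle lists was among the 6. The median difference was -0.37 over 15 mitotic kinases and spindle genes, 0.27 over 15 fork genes and -0.55 over 14 histones, beside 0.01 over all genes. Cdkn1a was at 240.2, 188, 328 and 594 CPM (TMM scale) in G2/M cells, with both cKO values above both Control values, and over all cycling cells the edgeR adjusted p was 0.132. Left out in turn, the libraries gave between 0 (without Control 1) and 14 (without cKO 1) genes, and without the cells that hold 3 markers of another class 59 genes passed, so the number rests on single cells and libraries.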

How the data were processed

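Raw UMI counts per gene and barcode, deposited by the authors as unfiltered matrices of 32372 features, were used as they stood. The submitters' processing notes name Cell Ranger 4.0.0 and the build mm10, and the labels' protocols give 10x 3′ v3.1 chemistry. Libraries were grouped by their labelled genotype, 2 in each group, and the deposited names of cKO 2 carry another run code. Barcodes were filtered and cycling cells picked as described; doublets were not called, and cells with 3 markers of another class were left out as an alternative. The members and the gene lists were chosen with earlier results of these data known. Counts were summed per library and class and fitted with edgeR 4.0.16 in R 4.3.3 (TMM, filterByExpr, quasi-likelihood test, Benjamini-Hochberg, threshold 0.05), with the library as a block between classes (6 residual degrees of freedom) and without it between genotypes (2). The test was checked on simulated counts. Shares were compared with exact permutation or sign-flip tests in scipy 1.17.1; 95% intervals are Clopper-Pearson. States were scored on cells thinned to 2000 UMIs. Alternatives were DESeq2 1.42.0, other filters, rules, comparators and depths, and each library left out in turn. Genes were named by rule: up to 3 of each list by p, and up to 10 per direction outside the cycle lists with the smallest adjusted p under 0.05, a mean log2 CPM of at least 6 (4 between genotypes) and the same direction in every library, with predicted, ribosomal and mitochondrial genes counted but not named. Members of a list named beside a count may fall outside this rule and were then chosen after their values were seen. 1 gene that the rule names is not reported here.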

Additional observations from a re-analysis of the deposited data

Results flagged for a closer look

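The genotype difference was tested for a change between cycling and non-cycling cells, and 14 of 13058 genes passed in edgeR's quasi-likelihood test with Benjamini-Hochberg adjustment. Values are the log2 difference of cKO and Control in cycling cells less that in non-cycling cells. The neutrophil genes Lcn2 (-5.59), S100a9 (-9.60), S100a8 (-8.83), Ngp (-5.95) and Retnlg (-11.17) had between 99.8% and 100% of their cycling-cell UMIs in 1 cell of Control 1 and 1 of cKO 1. S100a9 was at 3221, 0, 2467 and 0 CPM in cycling cells (CPM here is without TMM). In non-cycling cells it was at 0.22, 0, 32.5 and 25.1 CPM. S100a8 was there at 0.22, 0.0419, 20.7 and 21.8 CPM and Retnlg at 0, 0, 6.08 and 2.71 CPM. The non-cycling means of Lcn2 and Ngp were also higher in cKO, at 1.20 and 0.808 CPM against 0.0412 and 0.0209. The negative values of these genes thus also hold a higher non-cycling level in cKO. The MHC class II genes H2-Aa (-3.21), H2-Eb1 (-3.57), H2-Ab1 (-2.06) and Cd74 (-1.51) had between 44.8% and 50.9% of their Control 1 UMIs in 1 cell. Ly6a (2.13) had 10, 14, 78 and 29 UMIs over cycling cells, and at most 28.6% of a library's UMIs came from 1 cell. Fabp5, a fatty acid carrier, had 1.57, the chemokine Ccl5 2.63 and the interferon gene Ifit1 1.81, and in cKO 2 between 61.0% and 68.4% of the UMIs of these 3 came from 1 cell. Cenpa, the centromeric histone, had -1.02, with 406, 186, 281 and 75 UMIs and at most 18.7% from 1 cell.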

How the results depend on the processing

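The difference between genotypes in the share of cells (in points, main -0.205 for G2/M, -0.0991 for S and -0.304 for all cycling cells) lay between -0.689 and 0.279, -0.361 and 0.163, and -0.814 and 0.206 with each library left out in turn: it reversed for G2/M without Control 1 (0.131) and without cKO 2 (0.279), for S without Control 2 (0.163) and for all without cKO 2 (0.206). The MGnD-high difference from non-cycling cells lay between 12.4 and 19.3 points (G2/M) and between 11.6 and 19.0 (S) with a library left out, and reversed against cells within the interquartile range of the UMI counts of all cycling cells (-2.96 and -4.18) or of the same phase (-1.67 and -3.55), the second added after seeing the data. The interferon-high difference in G2/M cells reversed with these comparators (-1.47 and -1.53), without Control 1 (-1.29) and without Control 2 (-0.477), within a range of -1.29 to 1.18; in S-rule cells it lay between -7.08 and -2.26 and reversed with 1 state gene fewer (3.81).

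With cells thinned to 2000 UMIs, an alternative added after seeing the data, 849 genes differed between G2/M and non-cycling cells, 82 between S-rule and non-cycling cells, 189 between the sets and 0 between genotypes, with fewer UMIs to test. With 1 gene more asked of each rule the last 3 were 558, 264 and 0, and without cells over 3 times the median UMI count 519, 575 and 22. With each library left out the counts lay between 2279 and 2889 (G2/M), 128 and 320 (S), 924 and 1371 (G2/M against S), 0 and 14 (genotype) and 8 and 73 (interaction, also added later). The genotype count was 176 with every gene that had a UMI, 10 in S-rule cells alone, 134 with DESeq2 and 59 without cells with 3 markers of another class. Samples of the 2 genotypes share only a replicate number, with a correlation of deviations of 0.347, and a fit with the replicate block called 394 genes. The cause of these shifts was not tested.

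Of single genes, Lpl in G2/M cells reversed against cells in the UMI range of all members (-0.00440). Between G2/M and S-rule cells, with 1 gene more asked, Cx3cr1 (0.30), Fos (0.24), Gpnmb (-1.16), Ifit3 (1.07), Maf (0.16), Malat1 (0.51), Mef2a (0.17), Nfkbia (0.15), Nfkbiz (0.0521), P2ry12 (0.15), Pgk1 (-0.22) and Tgfbr1 (0.13) reversed, and without the deepest cells Gapdh (-0.0231), Nme1 (-0.0576) and Pgk1 (-0.27). Csf1 by genotype reversed on thinned cells (0.10). Over all alternatives the named genes of G2/M against non-cycling cells gave 679 values, of which 640 were still called, those of S-rule cells 282 of 376, of G2/M against S-rule cells 204 of 292 (15 reversed) and of genotype 30 of 77 (1 reversed). With 15 to 77 cells of a set per library, the depth limits what can be detected for genes at few UMIs.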
